A study of Arabidopsis thaliana with 6 samples.

Results

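RNA-seq of dissected shoot apices was used to describe the genes whose mRNA was strongly reduced in *vip3-1*. A gene was taken when its lowest WT library held at least 1 CPM (the count divided by the sum of counts of its library, scaled to a common total) and at least 4 times the CPM of its highest *vip3-1* library. These limits were met by 72 of the 33554 genes in the count table. A named group of 15 genes was left out (*MAF1* to *MAF5* of the *FLC* clade, *VIP3* itself, and genes of the salicylic acid response such as *PR1*), of which 8 had met the limits, so 64 genes remained. The WT was Col-0, and *vip3-1* is a T-DNA insertion allele without functional VIP3. Plants were kept in short days at 21°C and moved to continuous light at 16°C. Apices of the primary inflorescence were dissected free of flowers older than stage 4. Each genotype gave 3 libraries from pooled apices, described as technical triplicates. Nothing states that the pools came from separately grown plants, so every difference stands against the spread between pools only, and growth or harvest cannot be told apart from genotype.

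VIP3 is a WD40-repeat subunit of the Paf1 complex, which travels with RNA polymerase II along genes and is needed for histone marks of active transcription. In Arabidopsis, its loss is best known for low expression of *FLC* and related genes. Many plant immune genes are kept low in healthy tissue and are induced by salicylic acid, a response that involves EDS1 and PAD4, NLR proteins that detect pathogens, and WRKY factors that bind W-boxes in promoters.

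*VIP3*, used to check the labels, was at 41.7, 42.8 and 42.1 CPM in WT and at 5.77, 7.03 and 7.18 CPM in *vip3-1*. Libraries held between 50040048 and 69033269 counts. The summed CPM of 5 meristem genes was between 462 and 594 in WT and between 649 and 670.1 in *vip3-1*, and 4 of the 5 were called higher in *vip3-1*. The sum of 6 leaf mesophyll markers was between 2392 and 3594 CPM in WT and between 1391 and 2305 CPM in *vip3-1*. Most of it was *RBCS1A*, at 1850, 2016 and 2938 CPM in WT and 1724, 1092 and 1334 CPM in *vip3-1*, which was not called. *LHCB1.1* and *LHCB2.1* were called lower, 2 of the 6. *GLDP1*, *RBCS2B* and *CA1* were not called, with log2 fold changes of -0.08, 0.30 and 0.27. *RBCS2B* was at 19.8, 26.6 and 53.6 CPM in WT and at 70.3, 18.2 and 26.5 CPM in *vip3-1*. *CA1* was at 26.0, 48.5 and 100 CPM in WT and at 133, 22.1 and 41.0 CPM in *vip3-1*. For both genes *vip3-1* replicate 1 stood far above the other mutant libraries. Summed markers of phloem were at 44.1 to 53.8 CPM in WT and 69.6 to 93.9 CPM in *vip3-1*, and those of xylem at 11.1 to 19.3 and 20.3 to 29.7 CPM. In each list 2 of 5 were called higher, while single markers such as *SUC2* and *CESA7* overlapped between the genotypes and were not called. Over all tested genes, 16.1% were called lower and 14.6% higher. WT replicate 3 stood apart, since 10 markers of older anthers summed to 957 CPM there, against 67.5 CPM in the lowest WT library and 34.3 to 72.0 CPM in *vip3-1*. In bulk apices, fewer cells of a type and less RNA per cell cannot be told apart, and the part of these tissues in the results was not tested.

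The 64 genes covered a wide range of levels. Their mean WT level ran from 0.663 to 784 FPKM (fragments scaled to transcript length and sequencing depth), with a median of 3.91 FPKM against 19.3 FPKM for the 17570 genes with at least 1 CPM in every WT library, called expressed genes from here on. Of the 64, 37 were under 5 FPKM in WT, 14 were at 10 FPKM or more and 4 at 100 FPKM or more. Their summed CPM was 2067, 2006 and 1482 in WT and 187, 186 and 215 in *vip3-1*, and 66.5% of the WT sum came from 3 genes, a legume lectin gene (*AT5G03350*), a lipid-transfer protein gene (*AT5G55450*) and the retroposon *SADHU5-1*. The lowest WT value was between 4.08 and 40.0 times the highest *vip3-1* value (median 6.15), and for 18 genes it was at least 8 times. These ratios follow from how the genes were chosen and are given without a test. Over the whole table, 16.1% of the 20690 genes tested were called lower in *vip3-1* and 14.6% higher (edgeR's quasi-likelihood test, Benjamini-Hochberg adjusted p under 0.05), and all 64 genes of the set were among those tested.

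**Figure D1:**
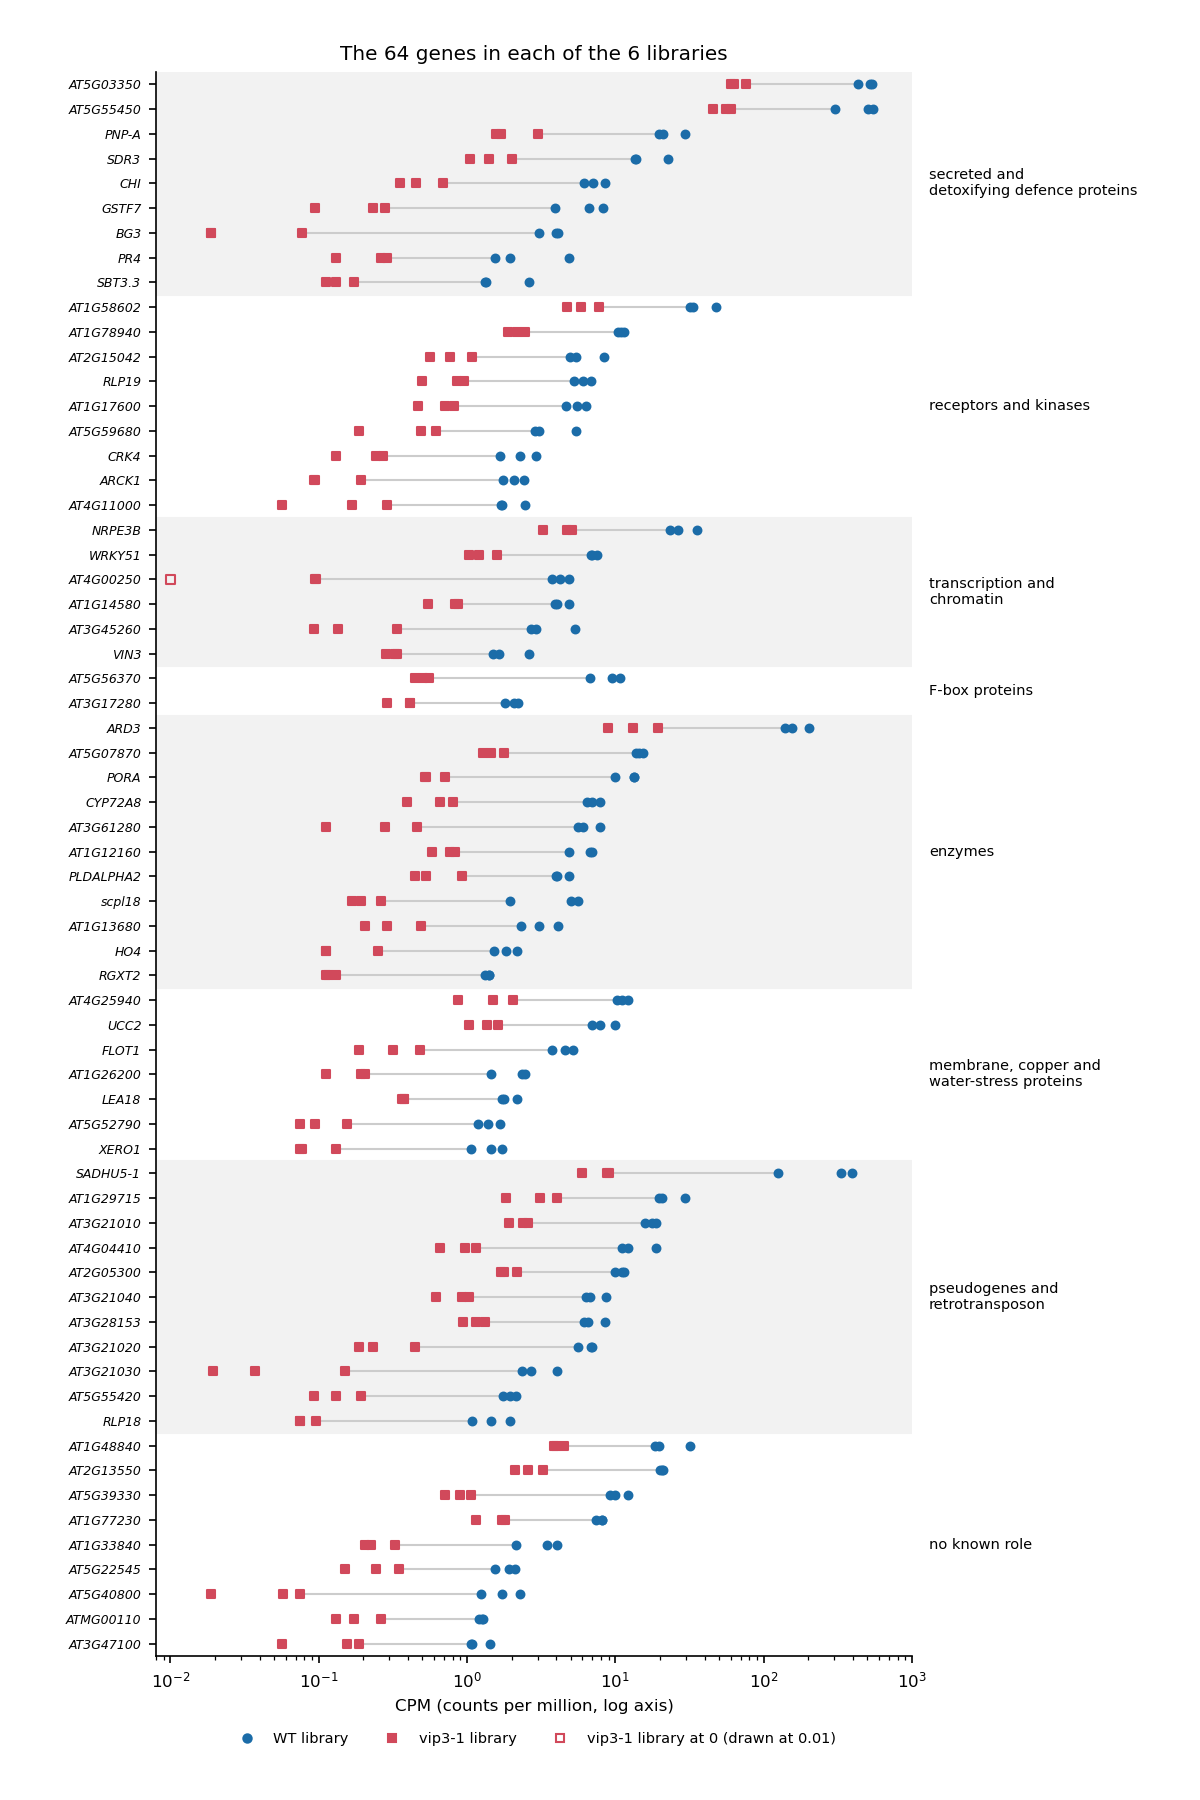
Level of each of the 64 genes in every library, in CPM on a log axis, grouped by what the genes encode, with circles for WT libraries, squares for *vip3-1* libraries and an open square for a library at 0. In every row every WT point lies at 4.08 times the *vip3-1* points or more.

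The limit divides a continuous range. Just inside it were *AT1G48840* (4.08 times), *AT1G77230* (4.08 times) and the NLR gene *AT1G58602* (4.10 times). Just outside were *LURP1* (3.97 times), a gene of downy mildew resistance, *AT5G07820* (3.94 times) and the NLR gene *AT5G45000* (3.90 times).

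**Figure D2:**
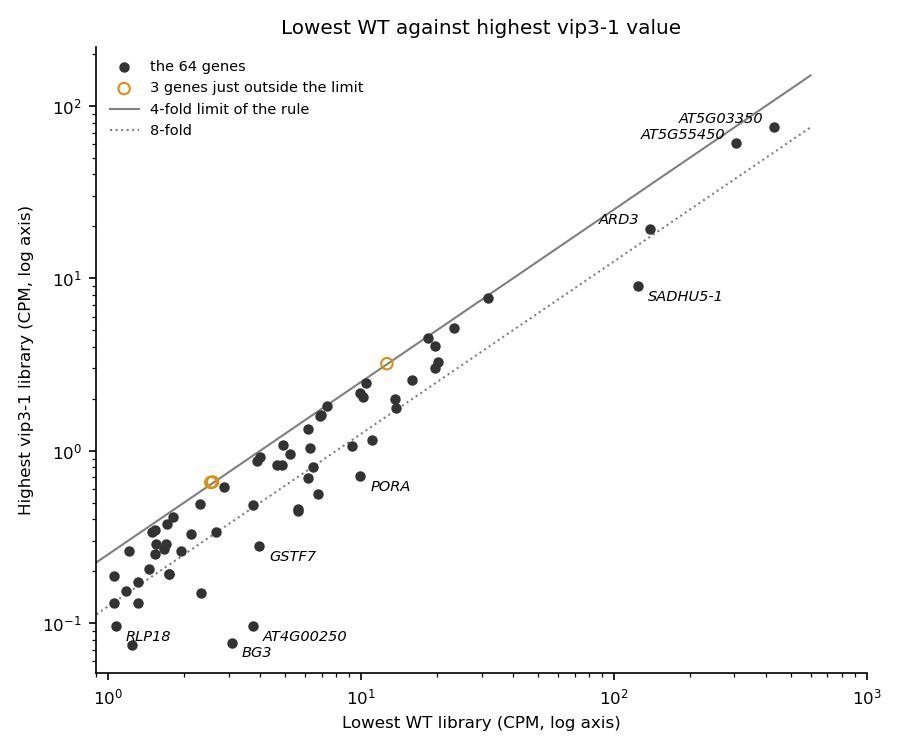
Lowest WT value of each gene against its highest *vip3-1* value, both in CPM on log axes, with filled points for the 64 genes, open circles for the 3 genes just outside the limit, and lines at 4 and 8 times. *BG3* and *AT4G00250* lie farthest from the limit, at 40.0 and 38.8 times.

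Promoters were read from the RefSeq TAIR10.1 reference as the 300 bases before the annotated start of the 63 genes placed there. The W-box was searched as TTGACC and TTGACT on both strands, and 25 of the 63 windows held at least 1 (39.7% against 31.3% of expressed genes). At least 2 were found in 14.3% of the windows, against 7.26%. Among the 51 windows that did not reach another annotated gene, 39.2% held a W-box, against 31.7% of such windows of expressed genes. Shown are 3 windows with several W-boxes and, for comparison, that of *BG3*, the gene with the largest ratio, in which none was found. None of these windows reaches another gene. They are written on the strand of the gene, 5′ to 3′, with W-boxes of either strand in capitals.
GSTF7, chr1:659981-660280, minus strand: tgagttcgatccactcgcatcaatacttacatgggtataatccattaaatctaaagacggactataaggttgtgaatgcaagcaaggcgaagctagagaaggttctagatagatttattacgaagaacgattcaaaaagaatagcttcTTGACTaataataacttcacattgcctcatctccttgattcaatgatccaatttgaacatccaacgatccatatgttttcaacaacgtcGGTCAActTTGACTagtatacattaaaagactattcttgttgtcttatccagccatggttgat
CRK4, chr3:16866262-16866561, minus strand: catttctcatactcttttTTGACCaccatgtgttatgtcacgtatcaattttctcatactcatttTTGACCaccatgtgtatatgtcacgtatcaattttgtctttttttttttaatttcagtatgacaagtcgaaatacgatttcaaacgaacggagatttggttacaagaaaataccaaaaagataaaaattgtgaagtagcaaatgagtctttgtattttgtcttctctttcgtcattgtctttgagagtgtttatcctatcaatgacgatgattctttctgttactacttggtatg
AT3G61280, chr3:22680660-22680959, plus strand: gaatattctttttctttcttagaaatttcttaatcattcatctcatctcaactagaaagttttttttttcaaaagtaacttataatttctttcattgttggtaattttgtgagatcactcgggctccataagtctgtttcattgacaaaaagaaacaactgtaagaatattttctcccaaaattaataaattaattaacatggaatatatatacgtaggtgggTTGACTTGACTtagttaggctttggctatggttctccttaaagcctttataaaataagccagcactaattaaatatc
BG3, chr3:21183145-21183444, minus strand: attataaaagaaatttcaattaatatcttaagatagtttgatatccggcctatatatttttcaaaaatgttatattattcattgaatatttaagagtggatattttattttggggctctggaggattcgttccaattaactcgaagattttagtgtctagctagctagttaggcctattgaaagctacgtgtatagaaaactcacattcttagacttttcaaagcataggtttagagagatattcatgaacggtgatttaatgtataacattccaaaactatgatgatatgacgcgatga

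The W-boxes of *GSTF7* lay 152, 63 and 55 bases before the gene start, those of *CRK4* 282 and 235 bases and those of *AT3G61280*, which overlap each other, 77 and 72 bases. The most W-boxes in a window was 4, before *SDR3*, but that window reaches the next gene. Of the other motifs searched on both strands, the as-1 core TGACG was in 28.6% against 22%, the G-box CACGTG in 9.52% against 8.05%, TATAAA in 55.6% against 50.4% and the telo-box AAACCCTA in 9.52% against 4.64%. None of the 37 W-boxes shared bases with another of these motifs. Every motif searched was thus more frequent in the 63 windows than before expressed genes, and a match is a run of letters, since no binding was measured.

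**Figure D3:**
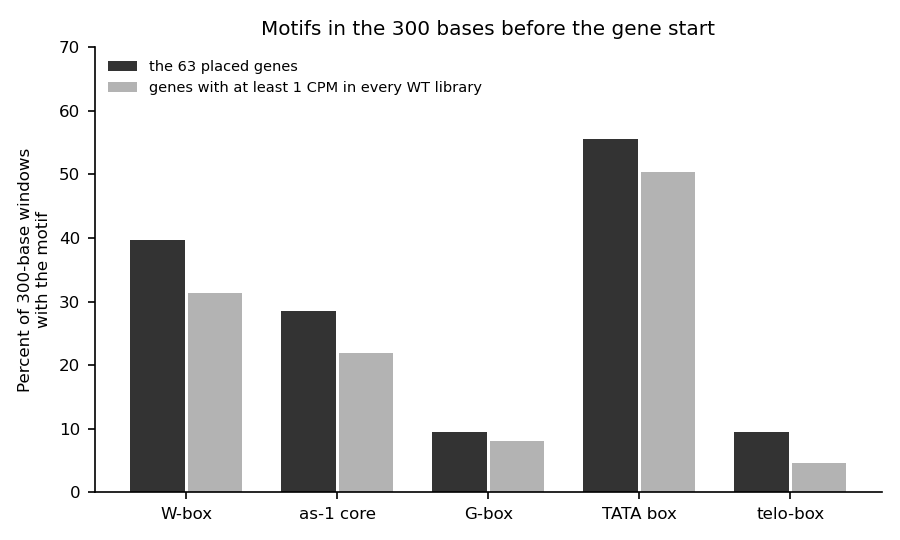
Percent of 300-base windows before the gene start that hold each motif on either strand, for the 63 placed genes and for expressed genes. The W-box was in 39.7% against 31.3%.

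Secreted and detoxifying proteins of defence were encoded by 9 of the genes, whose mean WT levels ran from 0.663 FPKM (*SBT3.3*) to 784 FPKM (*AT5G55450*), the lowest and the highest of the set. *AT5G55450*, of the lipid-transfer family, was at 547, 505 and 303 CPM in WT and at 45.7, 55.7 and 60.6 CPM in *vip3-1*. *AT5G03350*, a legume lectin gene known to be induced by salicylic acid, was at 524, 536 and 430.1 CPM in WT and at 60.5, 63.4 and 75.7 CPM in *vip3-1*. Both remained well detected in the mutant. *BG3*, a beta-1,3-glucanase, a type of enzyme that cuts fungal cell walls, had 283, 171 and 200 counts in WT and 1, 1 and 4 counts in *vip3-1*, or 3.73 ± 0.561 CPM in WT and 0.0382 ± 0.0336 CPM in *vip3-1* (SD, n = 3). It was close to the limit of detection in the mutant, where a value of 3 counts is 0.0561 to 0.0578 CPM.

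*GSTF7*, a glutathione S-transferase, was at 8.24, 3.94 and 6.67 CPM in WT and at 0.0940, 0.280 and 0.231 CPM in *vip3-1*. *PNP-A*, a secreted peptide of the natriuretic type, was at 29.6, 20.9 and 19.7 CPM in WT and at 1.56, 1.68 and 3.00 CPM in *vip3-1*. *SDR3*, a short-chain dehydrogenase, was at 13.7, 13.6 and 22.5 CPM in WT and at 1.05, 1.4 and 2.00 CPM in *vip3-1*. The lowest WT value of these genes was 14.1, 6.55 and 6.80 times the highest *vip3-1* value, where the rule asked for at least 4 times. The chitinase *CHI* was at 7.23 ± 1.15 CPM in WT and 0.50 ± 0.174 CPM in *vip3-1* (SD, n = 3). *PR4*, a hevein-like protein, was at 2.80 ± 1.83 CPM in WT and 0.227 ± 0.0840 CPM in *vip3-1* (SD, n = 3), and the subtilase *SBT3.3* at 1.76 ± 0.748 CPM in WT and 0.139 ± 0.0312 CPM in *vip3-1* (SD, n = 3). *PR4* had the widest WT range of the set, 3.16 times from its lowest to its highest library.

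Receptors and kinases were another 9 genes, all between 1.17 and 7.77 FPKM in WT. *AT1G58602*, an NLR gene at the *RPP7* locus of downy mildew resistance, was at 33.4, 31.7 and 47.3 CPM in WT and at 7.73, 4.73 and 5.83 CPM in *vip3-1*. *AT1G17600*, an NLR gene with a TIR domain, was at 5.53, 4.67 and 6.35 CPM in WT and at 0.470, 0.822 and 0.712 CPM in *vip3-1*. WT replicate 3 was the highest library for both. *AT1G17600* shares 3193 bases with *AT1G17610* on the opposite strand, and *AT1G58602* shares 4572 bases with a pseudogene on its own strand. Reads of such overlapping genes cannot be told apart, as the strand setting of the counting is not given in the sources used here.

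Receptor-like proteins carry leucine-rich repeats outside the cell and have no kinase. *RLP19* was at 5.24, 6.90 and 6.10 CPM in WT and at 0.959, 0.859 and 0.501 CPM in *vip3-1*. *AT2G15042*, a leucine-rich repeat gene that matches *RLP19* at 80.5% of bases over 82.2% of its length, was at 5.39, 8.45 and 4.92 CPM in WT and at 1.07, 0.561 and 0.770 CPM in *vip3-1*. *RLP18*, annotated as a transcribed pseudogene, was at 1.07, 1.96 and 1.46 CPM in WT and at 0.0752, 0.0747 and 0.0963 CPM in *vip3-1*. WT replicate 2 was the highest library for all 3.

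Cysteine-rich receptor-like kinases (CRK) were represented by *CRK4*, at 1.67, 2.92 and 2.28 CPM in WT and at 0.245, 0.131 and 0.270 CPM in *vip3-1*, and by *ARCK1*, a cytosolic kinase of that family known from abscisic acid and osmotic stress responses. *ARCK1* was at 1.74, 2.09 and 2.42 CPM in WT and at 0.0940, 0.0934 and 0.193 CPM in *vip3-1*. For both genes the lowest library was replicate 1 in WT and replicate 2 in *vip3-1*. The leucine-rich repeat kinase gene *AT5G59680*, the kinase gene *AT1G78940* and the ankyrin repeat gene *AT4G11000* had ratios of 4.68, 4.26 and 5.88 times.

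Transcription and chromatin genes were 6. *AT4G00250*, of the storekeeper family of DNA-binding proteins, had 258, 235 and 244 counts in WT and 5, 0 and 5 counts in *vip3-1*, and was the only gene of the 64 with a library at 0, which allows up to 0.0561 CPM for counting error alone. It matches *AT4G00238* at 87.5% of bases over 71.4% of its length. *NRPE3B*, a subunit of RNA polymerase V, which acts in RNA-directed DNA methylation, was at 23.4, 26.4 and 35.7 CPM in WT and at 5.12, 3.27 and 4.74 CPM in *vip3-1*. *WRKY51*, which takes part in the repression of jasmonate signalling by salicylic acid, was at 6.92, 6.90 and 7.55 CPM in WT and at 1.2, 1.03 and 1.60 CPM in *vip3-1*. Its WT libraries lay close together. *VIN3*, the PHD-finger protein induced by long cold to silence *FLC*, was low in WT, at 1.92 ± 0.611 CPM in WT and 0.315 ± 0.0290 CPM in *vip3-1* (SD, n = 3). The C2H2 zinc finger genes *AT1G14580* and *AT3G45260* had ratios of 4.49 and 7.93 times.

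F-box proteins select targets of ubiquitin ligases, and 2 such genes were in the set. *AT5G56370* was at 6.76, 9.47 and 10.7 CPM in WT and at 0.508, 0.448 and 0.558 CPM in *vip3-1*. *AT3G17280* was at 1.81, 2.20 and 2.08 CPM in WT and at 0.414, 0.411 and 0.289 CPM in *vip3-1*. Their mean levels were 6.11 and 2.03 FPKM in WT.

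Enzymes were the most varied group, with 11 genes. *ARD3*, a dioxygenase of the methionine salvage cycle, was at 154, 203 and 139 CPM in WT and at 19.4, 8.91 and 13.1 CPM in *vip3-1*. *PORA*, a light-dependent protochlorophyllide reductase best known from dark-grown seedlings, was at 13.3, 13.4 and 9.95 CPM in WT and at 0.527, 0.710 and 0.520 CPM in *vip3-1*. *AT5G07870*, an acyltransferase gene, was at 15.4, 14.4 and 13.7 CPM in WT and at 1.77, 1.29 and 1.44 CPM in *vip3-1*. The mutant libraries of *PORA* and *AT5G07870* lay close together, while those of *ARD3* differed by more. *AT3G61280*, a gene similar to O-glucosyltransferases, was at 7.84, 5.64 and 6.08 CPM in WT and at 0.113, 0.280 and 0.462 CPM in *vip3-1*. *RGXT2*, a xylosyltransferase acting on the pectin rhamnogalacturonan II, was at 1.41, 1.4 and 1.32 CPM in WT and at 0.113, 0.131 and 0.116 CPM in *vip3-1*, with little spread in either genotype. The flavin monooxygenase gene *AT1G12160*, the phosphodiesterase gene *AT1G13680*, the carboxypeptidase gene *scpl18*, the phospholipase gene *PLDALPHA2*, *HO4* (a heme oxygenase, which makes the precursor of the phytochrome chromophore) and the cytochrome P450 gene *CYP72A8* had ratios from 4.33 to 8.0 times.

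Membrane, copper and water-stress proteins were encoded by 7 genes, with WT means from 0.992 to 9.14 FPKM and ratios from 4.32 to 8.04 times. They were the flotillin gene *FLOT1*, the ENTH/ANTH domain gene *AT4G25940*, the blue copper protein gene *UCC2*, the late embryogenesis abundant gene *LEA18*, the dehydrin gene *XERO1* and the membrane protein genes *AT1G26200* and *AT5G52790*. *XERO1* had the largest ratio among them.

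Pseudogenes, 1 of them named as a retroposon, were 11 of the 63 genes found in the reference (17.5%). The share was 1.09% for expressed genes and 14.7% for all annotated genes in the count table, and these groups were not matched for level. *SADHU5-1*, a Sadhu element, was at 391, 333 and 124 CPM in WT and at 9.01, 8.73 and 5.99 CPM in *vip3-1*. WT replicate 3 was well under the other WT libraries, yet 13.8 times the highest *vip3-1* value. *AT4G04410* was at 11.1, 12.2 and 18.7 CPM in WT and at 0.658, 0.972 and 1.16 CPM in *vip3-1*, and has a near copy, *AT1G43775*, at 90.1% identity over 99.6% of its length. The copy was at 0.0145, 0 and 0 CPM in WT and at 0 in every *vip3-1* library. *AT1G29715* was at 29.5, 19.7 and 20.7 CPM in WT and at 1.84, 3.08 and 4.06 CPM in *vip3-1*. Reads were thus assigned to these pseudogenes in WT apices, and *AT2G05300* and *AT3G28153* had ratios of 4.59 and 4.63 times. *AT3G28153* shares all its 5494 bases with *AT3G00470*, an RNA gene on the opposite strand that was not counted, so the strand of its reads is not known.

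A further 9 genes were grouped as having no known role, among them *ATMG00110*, for which no annotation was found in the reference. *AT2G13550* was at 20.1, 20.7 and 20.8 CPM in WT and at 2.56, 3.27 and 2.12 CPM in *vip3-1*. *AT5G39330* was at 9.95, 12.1 and 9.25 CPM in WT and at 0.903, 0.710 and 1.06 CPM in *vip3-1*. *AT5G40800* was at 1.71, 2.27 and 1.24 CPM in WT and at 0.0188, 0.0747 and 0.0578 CPM in *vip3-1*. The last of these had the third largest ratio of the set, 16.6 times. *AT1G48840*, nearest the limit, was at 18.4, 19.6 and 31.9 CPM in WT and at 3.99, 3.83 and 4.50 CPM in *vip3-1*. *AT1G77230*, also near it, was at 7.37, 8.11 and 8.07 CPM in WT and at 1.81, 1.14 and 1.73 CPM in *vip3-1*. It shares 1811 bases with *AAE2* on the opposite strand, and *AAE2* had 1711, 1596 and 1380 counts in WT and 319, 327 and 362 in *vip3-1*. With *AT1G33840*, *AT3G47100*, *AT5G22545* and *ATMG00110*, this gene had a WT mean within 1.19 to 7.85 CPM. *ATMG00110* was not matched to the reference, so its role was not looked up, and it was left out of the counts of position and promoters.

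Since the rule asks for a high value in every WT library, a gene high in WT replicate 3 alone could not be in the set. As a description, the median log2 ratio of WT replicate 3 over the mean of the other WT libraries was -0.01 for the 64 genes and 0.01 for expressed genes. This library was the highest WT library for 24 of the 64 (37.5%, against 45.7% of expressed genes). It was the lowest for 26 (40.6%, against 41.9%). Leaving out a library can only loosen the limits, which were met by 83 genes without WT replicate 3. In the mutant, replicate 3 was the highest library for 34 of the 64 (53.1%, against 44.6% of expressed genes), and 96 genes met the loosened limits without it. The coefficient of variation had a median of 17.8% in WT and 30.3% in *vip3-1*, against 10.3% and 6.66% for expressed genes. These groups were not matched for level. The 64 genes had a median WT level of 3.91 FPKM against 19.3 FPKM, and a median of only 0.502 CPM in *vip3-1*. Low counts alone widen this measure, so it does not show that these genes were more variable in the mutant. Only *PR4*, *SADHU5-1*, *scpl18* and *GSTF7* varied by more than 2 times among WT libraries.

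The genes were shorter than expressed genes and had fewer exons. Median length was 1957 bases against 2490, the median number of exons was 3 against 5, and 20.6% had a single exon against 12.4%. For all annotated genes in the count table these values were 2017 bases, 3 exons and 30.2%. The comparison with expressed genes was not matched for level. Chromosomes 1, 2, 3, 4 and 5 held 16, 12, 14, 7 and 14 of the genes. Of the 63, 14 overlapped another annotated gene, 12 of them on the opposite strand only.

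Neighbouring genes of the set were found in 3 places, which hold 8 of the 64. On chromosome 3 (7366210 to 7374364, TAIR10.1), 4 pseudogenes of a single exon each lay in a row on the plus strand within 8.155 kb. *AT3G21010* was at 17.8, 18.9 and 15.9 CPM in WT and at 2.39, 1.91 and 2.58 CPM in *vip3-1*, and *AT3G21020* at 6.81, 6.95 and 5.64 CPM and at 0.188, 0.448 and 0.231 CPM. *AT3G21030* was at 2.33, 2.70 and 4.04 CPM in WT and at 0.150, 0.0374 and 0.0193 CPM in *vip3-1*, and *AT3G21040* at 6.75, 8.59 and 6.29 CPM and at 1.03, 0.617 and 0.924 CPM. The middle pair was nearly silent in the mutant, and the outer pair kept more. *AT3G21010* and *AT3G21020* match at 85.7% over 581 bases, and *AT3G21030* and *AT3G21040* at 81.6% over 934 bases. The genes on either side did not pass the test. *AT3G21050*, which matches *AT3G21030* at 87.2%, was at 6.43, 7.35 and 4.52 CPM in WT and at 4.63, 3.40 and 3.21 CPM in *vip3-1* (log2 fold change -0.61, SE 0.24, adjusted p = 0.0975 from edgeR). *AT3G21000*, annotated as a Gag-Pol-related retrotransposon gene, matches *AT3G21020* at 84.8% over 348 bases. It was at 0.985, 1.60 and 13.8 CPM in WT and at 0.959, 0.561 and 0.655 CPM in *vip3-1* (log2 fold change -2.80, SE 1.02, adjusted p = 0.0799 from edgeR), high in WT replicate 3 alone.

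On chromosome 2 (6507402 to 6512641), *RLP18* and *AT2G15042* were adjacent. *AT2G15030*, the gene before them on the same strand, was at 2.04, 2.00 and 2.80 CPM in WT and at 0.640, 0.710 and 0.597 CPM in *vip3-1* (log2 fold change -1.71, SE 0.24, adjusted p = 0.00519 from edgeR). On chromosome 5 (22461735 to 22468306), the pseudogene *AT5G55420* started 5.602 kb before *AT5G55450* and was at 2.13, 1.96 and 1.74 CPM in WT and at 0.132, 0.0934 and 0.193 CPM in *vip3-1*. Between them, *AT5G55430* (log2 fold change 0.42, SE 0.26, adjusted p = 0.254) and the F-box gene *AT5G55440* (log2 fold change 0.23, SE 0.46, adjusted p = 0.725) did not pass edgeR's test, and their values overlapped between the genotypes. *AT5G55460*, another lipid-transfer family gene beyond *AT5G55450*, did not pass it either (log2 fold change -0.87, SE 0.29, adjusted p = 0.0592).

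**Figure D4:**
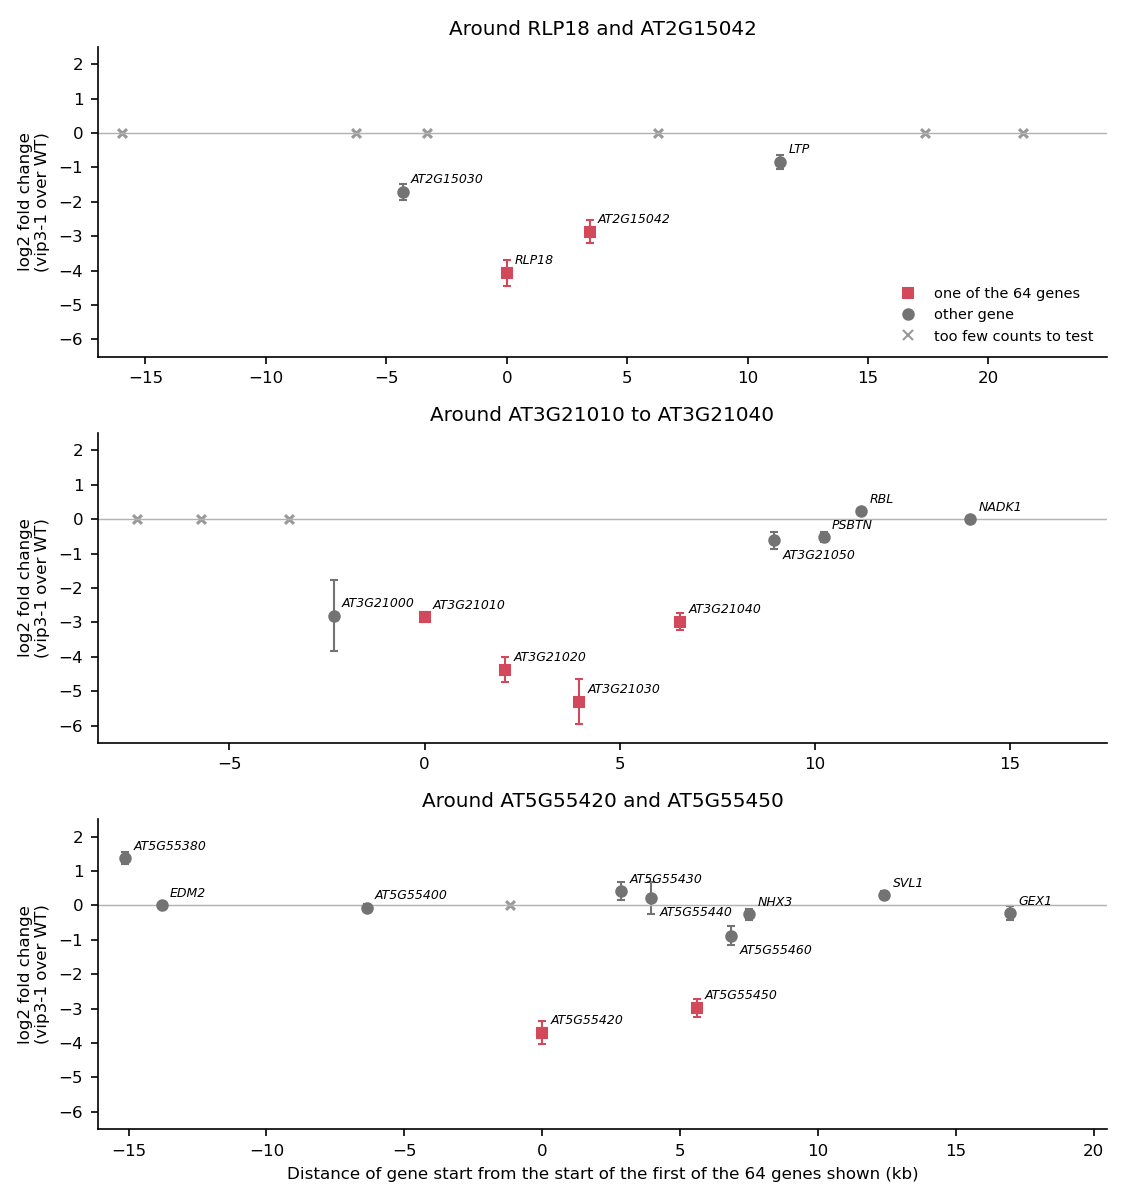
Log2 fold change of *vip3-1* over WT against distance in kb, around the 3 places where genes of the set are neighbours. Error bars are 1 standard error, worked out from edgeR's fold change and F statistic. Squares are genes of the set, circles other genes and crosses genes with too few counts to test. The 4 pseudogenes on chromosome 3 lie between -2.84 and -5.30, while the genes between the pair on chromosome 5 lie near 0.

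The nearest annotated gene on each side of the set gave 118 genes, of which 79 were tested. Of these, 22 (27.8%) were called lower and 5 (6.33%) higher, against 16.1% and 14.6% of all tested genes, and their median log2 fold change was -0.39 against -0.02. Leaving out neighbours that overlap or resemble the gene of the set, 18 of 65 were lower and 4 higher. On the same strand 15 of 51 were lower, and on the opposite strand 7 of 28. Leaving out a library in turn gave 17 to 25 lower neighbours. The number of higher neighbours was 10 without WT replicate 3, 3 without WT replicate 1 and 2 without WT replicate 2 or any single *vip3-1* replicate. These are counts beside their background, and the difference from it was not tested.

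The neighbours named here were chosen after their values were seen. *GSTF6*, next to *GSTF7*, was at 43.8, 27.6 and 22.9 CPM in WT and at 11.2, 10.4 and 11.6 CPM in *vip3-1* (log2 fold change -1.41, SE 0.24, adjusted p = 0.00877). *AT5G07860*, an acyltransferase gene next to *AT5G07870*, fell by 2.06 (SE 0.24, adjusted p = 0.00323), and *AT5G25260*, which resembles *FLOT1* beside it, by 2.30 (SE 0.70, adjusted p = 0.0483), both on the log2 scale. *AT3G47090* and *AT3G47110*, leucine-rich repeat kinase genes on either side of *AT3G47100*, fell by 2.17 (SE 0.38, adjusted p = 0.00959) and 1.84 (SE 0.26, adjusted p = 0.00498). *AT4G04420*, next to *AT4G04410*, had 27, 20 and 34 counts in WT and 0 in every *vip3-1* library, at least 8.26-fold lower with 3 counts per library as the limit. By contrast *AT1G32950*, a subtilase gene next to *SBT3.3*, rose by 1.30 on the log2 scale (SE 0.33, adjusted p = 0.0293). It was low in both genotypes, at 0.246, 0.234 and 0.160 CPM in WT and at 0.470, 0.561 and 0.462 CPM in *vip3-1*. *AT5G25260* was low too, at 0.565, 0.234 and 1.14 CPM in WT and at 0.188, 0.112 and 0.0578 CPM in *vip3-1*. Adjusted p-values for neighbours and families are from edgeR's quasi-likelihood test, over all tested genes.

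The immune receptor families of the set were then examined without the 64 and the genes left out. Among NLR genes, 41 were called lower and 8 higher of 121 (33.9% and 6.61%), against 16.1% and 14.6% of all tested genes. Their median log2 fold change was -0.30. Those called lower ran from -0.31 to -2.51. *AT3G51570*, the NLR gene with the largest increase, was at 0.116, 0.0540 and 0.200 CPM in WT and at 1.24, 1.12 and 1.06 CPM in *vip3-1* (log2 fold change 3.30, SE 0.45, adjusted p = 0.00480). The count of lower NLR genes was 25 without *vip3-1* replicate 1 and 23 without *vip3-1* replicate 2. The count of higher NLR genes was 5 without WT replicate 2, 5 without *vip3-1* replicate 2 and 4 without *vip3-1* replicate 3, and 11 without WT replicate 3. Family genes named here and below were likewise chosen after their values were seen.

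CRK genes were called in 1 direction. Of 29, 12 were called lower (41.4%) and 0 higher by edgeR, against 16.1% and 14.6% of all tested genes. In edgeR 0 were higher at an unadjusted p under 0.05, with 0 higher by DESeq2, and the median log2 fold change was -1.0. *CRK14*, *CRK15* and *CRK34* were between 5.15 and 8.94 CPM in WT and between 0.828 and 3.27 CPM in *vip3-1*. *CRK34* fell by 1.61 (SE 0.17, adjusted p = 0.00222) and *CRK15* by 2.05 (SE 0.40, adjusted p = 0.0124). *CRK1* was at 84.6, 82.3 and 102 CPM in WT and at 90.5, 84.4 and 102 CPM in *vip3-1*, and its genotypes overlapped (log2 fold change 0.14, SE 0.10, adjusted p = 0.308). Without *vip3-1* replicate 2, 7 CRK genes were called lower.

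Receptor-like protein genes were lower in 11 (26.8%) and higher in 5 (12.2%) of 41, against 16.1% and 14.6% of all tested genes. *RLP23*, a receptor of microbial NLP peptides, was at 16.6, 10.2 and 10.6 CPM in WT and at 0.771, 0.934 and 2.85 CPM in *vip3-1* (log2 fold change -2.95, SE 0.52, adjusted p = 0.00950). *RLP35*, which resembles *RLP19*, rose by 2.46 (SE 0.22, adjusted p = 0.00158). The count of lower genes was 7 without WT replicate 1, 6 without *vip3-1* replicate 1 and 5 without *vip3-1* replicate 2. The count of higher genes was 3 without *vip3-1* replicate 2 and 3 without *vip3-1* replicate 3.

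EDS1 relays signals from NLR proteins. The list called the EDS1 node here held *NDR1* and *HR4* beside *EDS1*, *PAD4*, *SAG101* and *ADR1* genes, so it is wider than EDS1 and its partners. Of its 8 genes, 4 (50%) were called lower and 0 higher by edgeR, against 16.1% and 14.6% of all tested genes. There were 0 higher at an unadjusted p under 0.05 and 0 higher by DESeq2. *PAD4*, the partner of EDS1, was at 49.0, 39.4 and 35.7 CPM in WT and at 14.6, 19.2 and 27.0 CPM in *vip3-1* (log2 fold change -0.94, SE 0.23, adjusted p = 0.0265). *SAG101* fell by 0.71 (SE 0.14, adjusted p = 0.0118), *NDR1* by 1.07 (SE 0.23, adjusted p = 0.0184) and *HR4* by 2.86 (SE 0.44, adjusted p = 0.00674). *EDS1* itself was at 82.2, 59.7 and 55.9 CPM in WT and at 46.9, 50.3 and 64.4 CPM in *vip3-1*, with overlapping values (log2 fold change -0.20, SE 0.18, adjusted p = 0.424). Without *vip3-1* replicate 1, 2 of these genes were called lower, and without *vip3-1* replicate 2, 1.

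Other families that hold genes of the set were nearer the background, 16.1% lower and 14.6% higher, or went both ways. GST genes were lower in 8 (22.2%) and higher in 5 (13.9%) of 36. Cytochrome P450 genes were lower in 31 (22.8%) and higher in 23 (16.9%) of 136. F-box genes were lower in 25 (13.2%) and higher in 20 (10.6%) of 189. WRKY genes were lower in 6 (12.8%) and higher in 8 (17.0%) of 47. Leucine-rich repeat and lectin receptor kinases were lower in 35 (19.9%) and higher in 37 (21.0%) of 176. The UDP-glycosyltransferase, MADS and non-coding RNA lists held no gene of the set. UDP-glycosyltransferases were lower in 15 (16.0%) and higher in 13 (13.8%) of 94. MADS genes were lower in 8 (15.4%) and higher in 5 (9.62%) of 52. Non-coding RNA genes were lower in 65 (21.5%) and higher in 24 (7.95%) of 302, more often lower than the background. Transposable element genes, found by name or product only, were lower in 6 (15.8%) and higher in 11 (28.9%) of 38. These counts moved with single libraries, and without *vip3-1* replicate 2, 1 GST, 18 P450 and 1 transposable element genes were called lower, while 40 F-box genes were called higher without WT replicate 3. Of the relatives of *SADHU5-1*, *SADHU3-2* was at 0.116, 0.0901 and 0.140 CPM in WT and at 3.86, 1.33 and 3.70 CPM in *vip3-1* (log2 fold change 4.75, SE 0.51, adjusted p = 0.00244) and *SADHU1-1* fell by 0.72 (SE 0.07, adjusted p = 0.00167). Sadhu elements were thus called in both directions. With library sizes in place of TMM scaling the share of lower among all called genes was 67.8%, against 52.3% with it, and the NLR, RLP, CRK and EDS1 node medians were below 0 under both and with DESeq2.

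**Figure D5:**
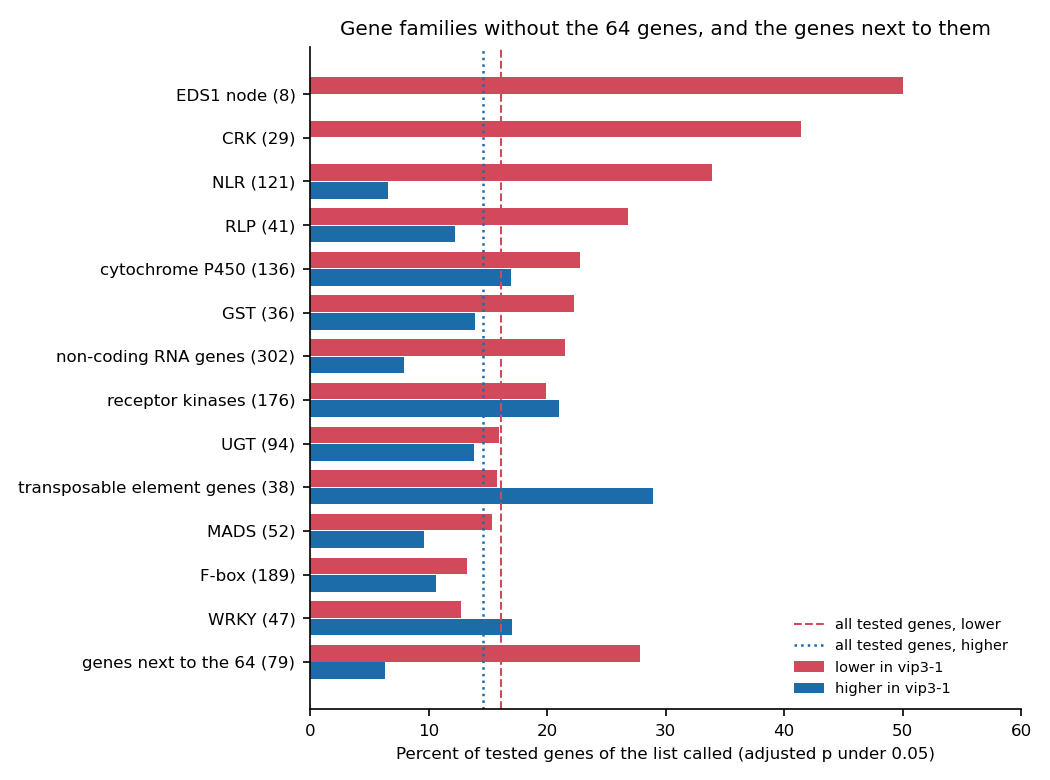
Percent of the tested genes of each family called lower or higher in *vip3-1* by edgeR, and of the genes next to the set, with the 64 genes and the genes left out removed. Lines give the shares of all tested genes, 16.1% lower and 14.6% higher, and the CRK bar reaches 41.4% lower.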

How the data were processed

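RNA-seq libraries of dissected apices (3 WT, 3 *vip3-1*) were analysed from tables deposited by the authors. The authors trimmed reads with Trimmomatic, aligned them to TAIR10 with TopHat2 2.0.6 and Bowtie2 2.0.5, and used SAMtools 1.2. The deposited estimated counts per gene (1.47% of values not whole) were rounded for the count tests, and FPKM values were made by the authors with Cufflinks 2.1.1. A further deposited table holds the authors' own comparison of the genotypes (fold changes and p-values), which was not used except for its gene positions, 4951 of 4951 of which overlapped a RefSeq TAIR10.1 gene on the same chromosome. Counting errors only are covered by limits of 3 counts.

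The members and gene lists were chosen with earlier results of these data known. CPM was the count over the column sum. All 33554 genes entered edgeR 4.0.16 (R 4.3.3; TMM, filterByExpr, quasi-likelihood test on genotype, Benjamini-Hochberg adjusted p under 0.05), which tested 20690 genes and was tested on simulated data. Standard errors (SE) were worked out as the absolute log2 fold change over the square root of edgeR's F statistic, since its test reports none. DESeq2 1.42.0, no TMM scaling, other filters, a replicate block and leaving out each library were tried. Replicate numbers are shared between genotypes in the labels, and same-numbered libraries deviated together (correlations 0.2173, 0.1905 and 0.3677, all over 0.1), although WT replicate 1 with *vip3-1* replicate 2 gave 0.2893. Promoters and neighbours came from RefSeq TAIR10.1 and similar genes from blastn 2.17.0 (E-value 1e-20). Python 3.11.15 with pandas 2.3.3 and matplotlib 3.10.9 was used. Members described with all libraries were those in family lists with at least 2 members, the 15 with the highest WT FPKM, the 15 with the largest ratio, the 3 nearest the limit on each side and neighbouring members. Some others were added after their values were seen.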

Additional observations from a re-analysis of the deposited data

How the results depend on the processing

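The rule gave 125 genes at 3 times and 18 at 8 times in place of 64 at 4 times. It gave 59 genes with TMM-scaled library sizes (all among the 64), 65 with FPKM (53 shared), 74 at a WT minimum of 0.5 CPM and 44 at 2 CPM. Leaving out each library in turn gave 67 to 96 genes, and the 64 stayed among them by construction, since fewer libraries only loosen the rule. In the same way, genes called lower ran from 1391 to 4099 and higher from 1282 to 3956, neighbours called lower from 17 to 25 and higher from 2 to 10, and family genes called lower from 161 to 327 and higher from 89 to 199. The number of higher neighbours, 5 in the edgeR fit, was 8 with DESeq2 and 3 with no filter on low counts. The cause was not tested. With the replicate block, 3607 genes were lower and 3781 higher, and neither these nor the counts of neighbours (20 lower, 6 higher) and family genes (306 lower, 164 higher) moved by more than 1.5 times. Of 286 alternative counts of single families, 230 were within 1.5 times of the value given. Members with few mutant counts, such as *BG3* and *AT4G00250*, have ratios limited by depth.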
